A study of Mus musculus with 24 samples.

Results

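The miR-193 and miR-365 clusters are represented here by 4 mature miRNAs, mmu-miR-193a-3p, mmu-miR-193a-5p, mmu-miR-193b-3p and mmu-miR-365-3p (the mouse prefix mmu is dropped below), out of 1881 mouse miRNAs on the array, and they were read by 10 of its 4415 probes. Members were matched by their names in the array files, and the group was chosen on diet differences seen in these same arrays. Every difference between diets below is therefore a description, and limma calls of members on it are not read as a test. The samples were livers and sera of male C57BL/6NJcl mice, each hybridised to a 1-colour Agilent miRNA array. The NASH groups (a model of non-alcoholic steatohepatitis) received CDAHFD, a high-fat feed lacking choline, with 0.1% methionine. The Control groups received CE-2 chow. All mice were bought at 5 weeks of age and kept for 1 week before feeding began, and tissue was taken after 1, 2 or 6 weeks of feeding, at 7, 8 or 12 weeks of age. Each tissue, diet and week had 2 arrays, giving 24 in all, with 6 per diet in each tissue. Whether both arrays of a group hold RNA of separate mice is not stated in the labels, and p-values therefore cover only array-to-array spread, part of which may be technical.

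MicroRNAs guide Argonaute proteins to messenger RNAs, mainly through the seed at bases 2 to 8 of the mature strand, and usually lower the output of those messages. The miR-193a and miR-193b genes are paralogs, and each lies beside a copy of the miR-365 gene. In mice the miR-193b and miR-365 pair is known for its high level in brown fat, and miR-193a-3p is known as a growth-restraining miRNA in several human tumours. A hairpin can yield a strand from its 5′ arm and another from its 3′ arm, and usually one of them prevails.

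The mature sequences are shown because they set out what the members share and how well the probes could separate them; capitals mark the seed. They are from RefSeq for GRCm38.p6, written 5′ to 3′, and all 4 members were found there.
miR-193a-3p: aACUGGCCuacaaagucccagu
miR-193b-3p: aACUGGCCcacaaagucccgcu
miR-193a-5p: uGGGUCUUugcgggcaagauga
miR-365-3p: uAAUGCCCcuaaaaauccuuau

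The paralogs miR-193a-3p and miR-193b-3p have the same seed, and no other of the 1679 mature miRNAs in that table has it. They are identical at 19 of 22 bases and differ by U9C, A20G and G21C, with the miR-193a-3p base first and positions counted from 1 at the 5′ end. The seeds of miR-193a-5p and miR-365-3p were shared with 0 other mature miRNAs in the table. On the plus strand of chromosome 11, the Mir193a hairpin lies at chr11:79711969-79712034 and the Mir365-2 hairpin at chr11:79726400-79726511, with 14365 bases between them. On the plus strand of chromosome 16, the Mir193b hairpin lies at chr16:13449523-13449601 and the Mir365-1 hairpin at chr16:13453840-13453926, with 4238 bases between them. The mature miR-365-3p is the same from both loci, so its level sums whatever both clusters make, whereas the miR-193 members each come from a single locus.

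The level of a member below is the scaled intensity of its brightest probe, where 100 is the array's 75th percentile, taken over probes that exceeded background on every array of that tissue. For log2 differences, values under a floor were raised to it, at 2.25 in liver and 3.81 in serum. The arrays detected 253 to 379 miRNAs in liver and 235 to 399 in serum, and no member probe held a saturated spot. The hepatocyte miRNA miR-122-5p was detected on all 12 liver arrays, and 2 of the 5 muscle miRNAs were detected on none of them. Replicate arrays correlated at 0.977 to 0.996 in liver and 0.915 to 0.980 in serum over probes above background on all 24 arrays. The percentile used for scaling was an intensity of 505 to 868 in NASH livers and 394 to 646 in Control livers, and of 338 to 578 in NASH sera and 144 to 642 in Control sera. NASH arrays occupied columns 2 and 4 of each slide and Control arrays columns 1 and 3, so column and diet cannot be told apart. The part of array brightness in the diet differences was not tested, beyond the values without scaling given below. Liver and serum levels cannot be compared between separately scaled fits, and bulk samples cannot tell fewer cells of a type from less RNA per cell.

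**Figure D1:**
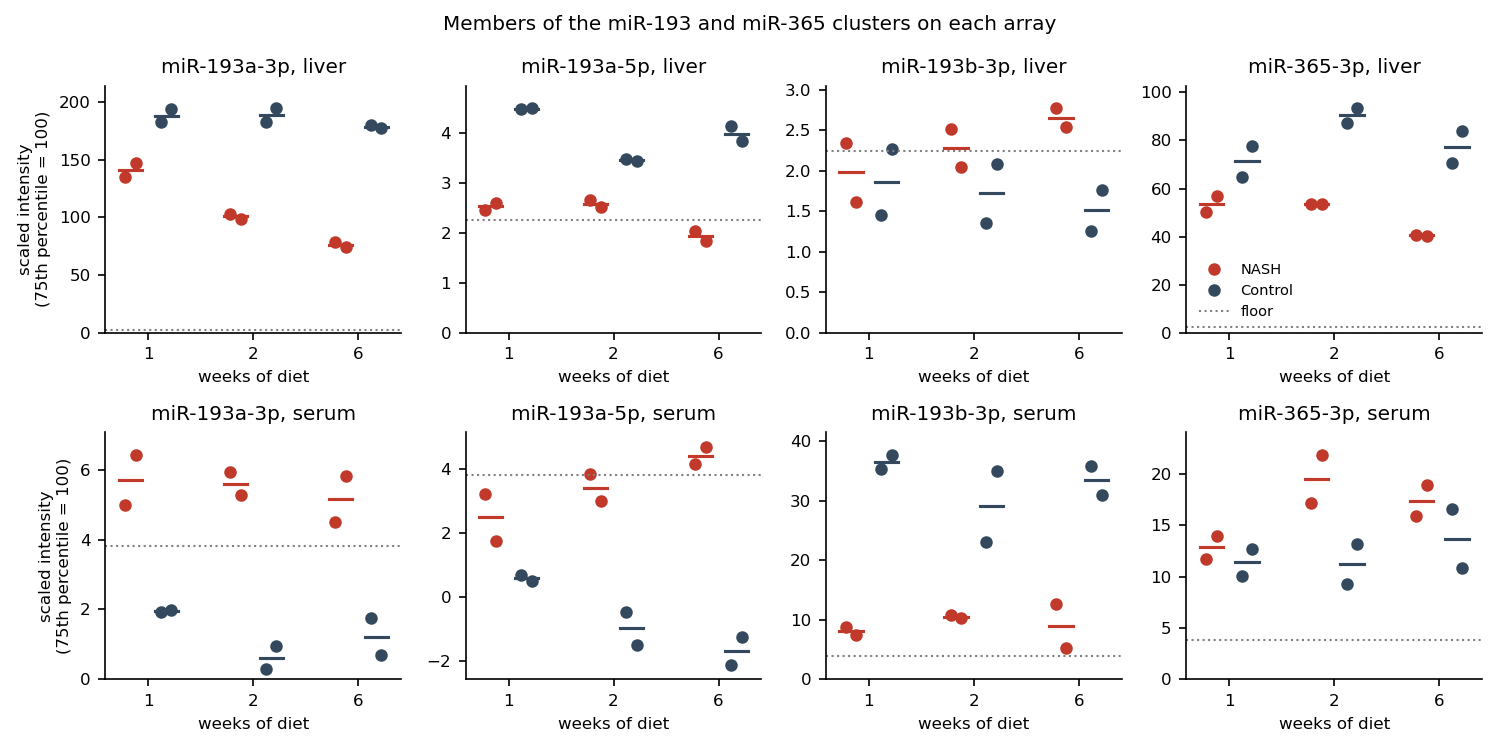
Scaled intensity of the 4 members (75th percentile = 100) on each array against weeks of diet, liver above and serum below, with NASH left of Control; each point is an array, each bar the mean of 2 and the dotted line the floor. All 6 NASH livers lie below all 6 Control livers for miR-193a-3p, miR-193a-5p and miR-365-3p, and all 6 NASH sera lie below all 6 Control sera for miR-193b-3p. The members were chosen on diet differences, so nothing is read from this separation, and its share over all miRNAs is not given.

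In NASH liver the 3′ and 5′ strands of miR-193a and miR-365-3p were lower than in Control liver. The scaled intensity of miR-193a-3p was 135 and 147 at week 1, 103 and 99.0 at week 2, and 78.8 and 74.0 at week 6 in NASH livers. In Control livers it was 183 and 194 at week 1, 183 and 195 at week 2, and 179.9 and 178 at week 6. On this scale the groups did not overlap, and the Control values stayed within 177.9 to 194.7 while the NASH values were lowest at week 6. Before scaling they overlapped, at 494 to 1172 in NASH livers and 709 to 1154 in Control livers. Scaled jointly with serum they also overlapped, at 35.5 to 62.8 in NASH livers and 60.7 to 82.0 in Control livers. The mean was 106.2 ± 29.5 in NASH livers and 185.4 ± 7.14 in Control livers (SD, n = 6 each), a log2 difference of -0.85 (SE 0.03) or 0.555-fold. By week the log2 difference was -0.42, -0.90 and -1.23 (SE 0.06 each). The dimmer miR-193a-3p probe, also above background on all 12 liver arrays, gave -0.84 against -0.85 for the brighter one.

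miR-193a-5p, the other strand of the same hairpin, was dim but was detected on all 12 liver arrays. Its scaled intensity was 2.47 and 2.60, 2.65 and 2.52, and 2.04 and 1.83 at weeks 1, 2 and 6 in NASH livers, against 4.49 and 4.50, 3.49 and 3.45, and 4.14 and 3.84 in Control livers. On this scale the groups did not overlap, and both week-6 NASH arrays were under the floor. Before scaling they overlapped, at 12.8 to 21.4 in NASH livers and 16.3 to 26.8 in Control livers. The log2 difference was -0.69 (SE 0.02) over all weeks, with -0.83, -0.42 and -0.83 by week. With arrays at the floor, these differences and their SE can be too small. Of its other 3 probes, 2 were above background on 0 liver arrays, and the third on 1 NASH and 2 Control arrays.

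miR-365-3p, whose mature strand both clusters encode, had a scaled intensity of 50.25 and 56.7, 53.7 and 53.4, and 40.7 and 40.4 at weeks 1, 2 and 6 in NASH livers. In Control livers it had 64.9 and 77.8, 87.5 and 93.4, and 70.5 and 84.1. On this scale the groups did not overlap. Before scaling they overlapped, at 255 to 436 in NASH livers and 278 to 543 in Control livers. Scaled jointly with serum they also overlapped, at 19.4 to 27.85 in NASH livers and 25.7 to 32.1 in Control livers. The mean was 49.2 ± 6.99 in NASH livers and 79.7 ± 10.7 in Control livers (SD, n = 6 each), a log2 difference of -0.70 (SE 0.07) or 0.617-fold. By week it was -0.41, -0.76 and -0.93 (SE 0.12 each), and the other probe gave -0.72 over all weeks. The direction was the same in 26 of 26 alternative settings for miR-193a-3p and miR-365-3p, but without scaling between arrays the differences shrank to -0.42 and -0.27, and the week 1 values became 0.09 for both.

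The paralog miR-193b-3p lay near the detection limit in liver. It was detected on 6 of 6 NASH arrays, against 3 of 6 Control arrays, and its probe was above background on 4 NASH arrays and 1 Control array. Its scaled intensity was 2.34 and 1.62, 2.51 and 2.05, and 2.77 and 2.54 at weeks 1, 2 and 6 in NASH livers, against 1.45 and 2.27, 1.36 and 2.09, and 1.26 and 1.77 in Control livers. The groups overlapped, and 2 NASH and 5 Control arrays were under the floor. The log2 difference was 0.11 (SE 0.03), and it turned to -0.13 with normexp background correction and -0.03 with quantile normalization.

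By limma with Benjamini-Hochberg adjustment over 388 liver miRNAs (adjusted p below 0.05), 3 of 4 members were called lower and 1 of 4 higher. Over all liver miRNAs 20.4% were called lower and 21.9% higher. Since the members were chosen on this contrast, nothing is read from their count or from the lack of overlap between diets. The share of all liver miRNAs without such overlap is not given. The split of all liver calls moved with the scaling, with 85 higher and 79 lower here, against 117 and 9 without scaling, 63 and 37 scaled over all probes and 32 and 90 with normexp. All 3 lower calls of members were lost without scaling, that of miR-365-3p also when scaled over all probes and that of miR-193a-5p with the floor doubled. The higher call, of miR-193b-3p, was lost in 9 of the 12 fits that left out an array, all but those without week 2 NASH replicate 2, week 6 Control replicate 1 or week 6 NASH replicate 2. The summed level of 11 hepatocyte-enriched miRNAs, a list chosen with results of these arrays known and holding no member, was 7255 to 13530 in NASH livers and 17750 to 20390 in Control livers, and 10 of them were called lower and 0 higher (median log2 difference -1.04, against 0.00 over all tested). Of 4 immune-cell miRNAs 2 were called higher and 0 lower, with a summed level of 172 to 336 in NASH livers and 92.0 to 132 in Control livers. Of 4 red-cell miRNAs 3 were called lower, with a summed level of 116 to 429 in NASH livers and 374 to 672 in Control livers. The part of these cell types in the members' differences was not tested.

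In NASH serum both miR-193a strands and miR-365-3p were higher than in Control serum, except with normexp background correction, which turned all 3, and with the floor doubled, which left both miR-193a strands at 0, and miR-193b-3p was lower. The scaled intensity of miR-193b-3p was 8.84 and 7.45, 10.8 and 10.25, and 12.6 and 5.17 at weeks 1, 2 and 6 in NASH sera. In Control sera it was 35.3 and 37.7, 23.05 and 35.1, and 35.9 and 31.0. The groups did not overlap, and the highest NASH value was 12.6 against a lowest Control value of 23.05. The mean was 9.19 ± 2.65 in NASH sera and 33.0 ± 5.35 in Control sera (SD, n = 6 each), a log2 difference of -1.88 (SE 0.23) or 0.271-fold. This was the 6th lowest difference among 426 serum miRNAs, but nothing is read from the rank, since the members were chosen on this contrast. By week the log2 difference was -2.17, -1.43 and -2.05 (SE 0.41 each). The dimmer probe gave -1.80 over all weeks, and the direction was the same in 26 of 26 alternative settings. The size depended on the scaling. Without scaling between arrays the difference shrank to -1.10 over all weeks, with -1.94 at week 1 and -0.99 at week 6. At week 2 its smallest size over the alternative settings was -0.37. Before scaling the week 2 intensity was 41.8 and 38.3 in NASH sera and 53.0 and 50.5 in Control sera.

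miR-193a-3p was detected on 6 of 6 NASH sera, against 1 of 6 Control sera. Its scaled intensity was 5.01 and 6.44, 5.95 and 5.28, and 4.51 and 5.825 at weeks 1, 2 and 6 in NASH sera, against 1.94 and 1.98, 0.287 and 0.948, and 1.75 and 0.682 in Control sera. The groups did not overlap, but all 6 Control values were under the floor and the probe was above background on none of those arrays. Such a difference has only a bound, set against the lowest signal above background on each Control array. By it miR-193a-3p was at least 1.09-fold higher in NASH sera over all weeks and at least 1.92-fold at week 1. At weeks 2 and 6 the bound gave no excess, so no fold is given for them. The fitted log2 difference over all weeks, with Control arrays at the floor, was 0.52 (SE 0.09). It ranged from 0.00 with the floor doubled to 2.03 with the floor lowered 4 times, and normexp background correction turned it to -0.30. The dimmer miR-193a-3p probe was above background on 0 NASH and 0 Control sera, so these serum values rest on 1 probe.

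miR-193a-5p was detected on 6 of 6 NASH sera, against 0 of 6 Control sera. Before scaling its intensity was 10.1 to 19.1 in NASH sera and -3.60 to 3.24 in Control sera, so the arrays did not overlap on that scale. After scaling it was 3.23 and 1.75, 3.835 and 3.01, and 4.17 and 4.68 at weeks 1, 2 and 6 in NASH sera, against 0.668 and 0.504, -0.471 and -1.51, and -2.15 and -1.25 in Control sera. Only 3 NASH arrays were above the floor, so the fitted log2 difference of 0.07 (SE 0.03) mostly reflects the floor, and no fold is given over all weeks. The other 3 miR-193a-5p probes were above background on 0 NASH and 0 Control sera.

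miR-365-3p was detected on all 12 serum arrays. Its scaled intensity was 11.7 and 14.0, 17.2 and 21.9, and 15.9 and 18.9 at weeks 1, 2 and 6 in NASH sera, against 10.1 and 12.7, 9.30 and 13.2, and 16.6 and 10.8 in Control sera. The groups overlapped, although each NASH array was above the Control mean of its own week. The mean was 16.6 ± 3.60 in NASH sera and 12.1 ± 2.65 in Control sera (SD, n = 6 each), a log2 difference of 0.45 (SE 0.16). By week it was 0.18, 0.81 and 0.37 (SE 0.28 each), the other probe gave 0.38 over all weeks, and the mean difference was 0.76 to 1.24 under the other 4 scalings (median centring, quantile, over all probes, none) but turned to -0.13 with normexp background correction.

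**Figure D2:**
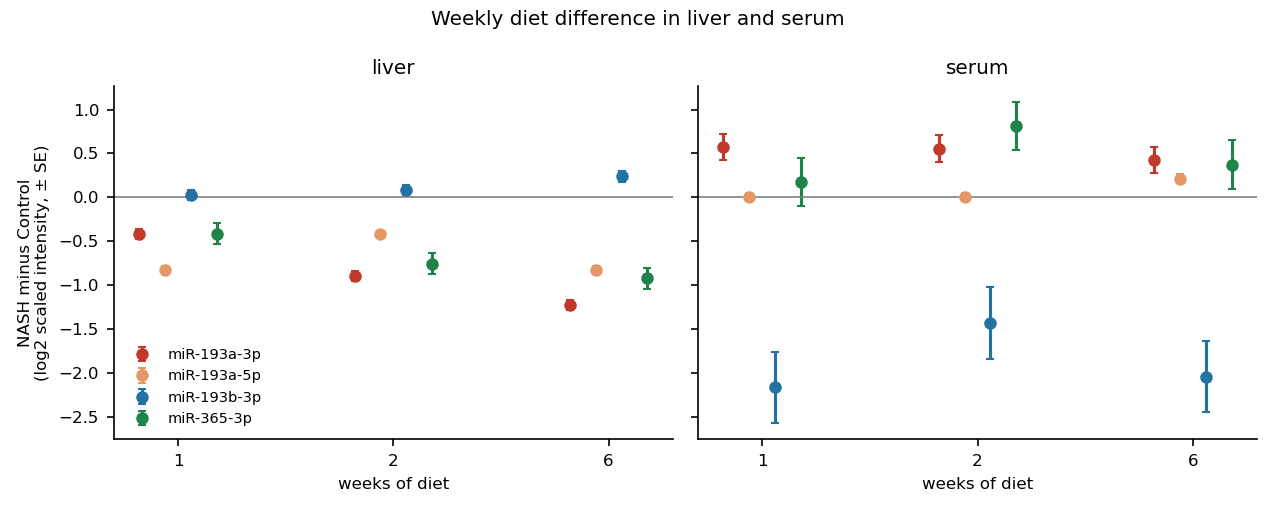
NASH minus Control log2 difference in scaled intensity (± SE) at weeks 1, 2 and 6 for the 4 members in liver (left) and serum (right). miR-193a-3p runs through -0.42, -0.90 and -1.23 in liver, while miR-193b-3p lies between -2.17 and -1.43 in serum.

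By the same rule over 426 serum miRNAs, 1 of 4 members was called higher and 1 of 4 lower. Over all serum miRNAs 4.93% were called higher and 13.8% lower. Nothing is read from these counts or from the lack of overlap in serum either. The split of all serum calls was 21 higher and 59 lower, against 36 and 39 with median centring, 29 and 29 with quantile normalization, 38 and 48 with total gene signal, 32 and 7 scaled over all probes, 37 and 7 without scaling and 16 and 349 with normexp. The higher call, of miR-193a-3p, was lost with the floor doubled and with no filter, and miR-365-3p was called higher under the other 4 scalings. The hepatocyte-enriched list summed to 3126 to 4101 in NASH sera and 616 to 1213 in Control sera, and 5 of its 9 tested miRNAs were called higher and 0 lower (median log2 difference 0.82, against -0.11 over all tested). The 5 muscle miRNAs summed to 186 to 898 in NASH sera and 1374 to 2955 in Control sera, with 2 called lower and 0 higher. The red-cell list summed to 819 to 7198 in NASH sera and 3083 to 6725 in Control sera, with 2 of 3 tested called lower, and the immune list to 284 to 690 in NASH sera and 437 to 934 in Control sera, with 2 of 4 called lower. The haemolysis index (miR-451a relative to miR-23a-3p, on the log2 scale) was -0.25 to 3.57 in NASH sera and 1.15 to 2.57 in Control sera. Their part in the members' serum differences was not tested.

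The sign of the diet difference was opposite in the 2 tissues for each member. That of miR-193b-3p in liver and of miR-193a-5p in serum rested on values near the floor. The serum signs of miR-193a-3p and miR-365-3p also depended on the setting. For miR-193a-3p, with all 6 Control sera at the floor, the difference was 0.00 with the floor doubled and -0.30 with normexp. For miR-365-3p, with overlapping groups, it was -0.13 with normexp. Serum minus liver diet difference, in a joint fit of 24 arrays, was 1.60 (SE 0.13) for miR-193a-3p, 0.54 (SE 0.09) for miR-193a-5p, 0.79 (SE 0.17) for miR-365-3p and -1.90 (SE 0.23) for miR-193b-3p. Over the alternative settings it ranged from 0.15 to 2.70 for miR-193a-3p and from -0.38 to 2.77 for miR-193a-5p. The range was 0.11 to 1.81 for miR-365-3p and -2.70 to -1.255 for miR-193b-3p. In the joint fit miR-193b-3p was at the floor in all 6 NASH and all 6 Control livers, and both miR-193a strands in all 6 Control sera. Values at the floor can make these differences and their SE too small. The miR-193a-3p probe was above background on 6 of 6 NASH sera and 0 of 6 Control sera, and on 6 of 6 livers with each diet. The miR-193b-3p probe was above background on 6 of 6 sera with each diet, and on 4 NASH livers and 1 Control liver.

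**Figure D3:**
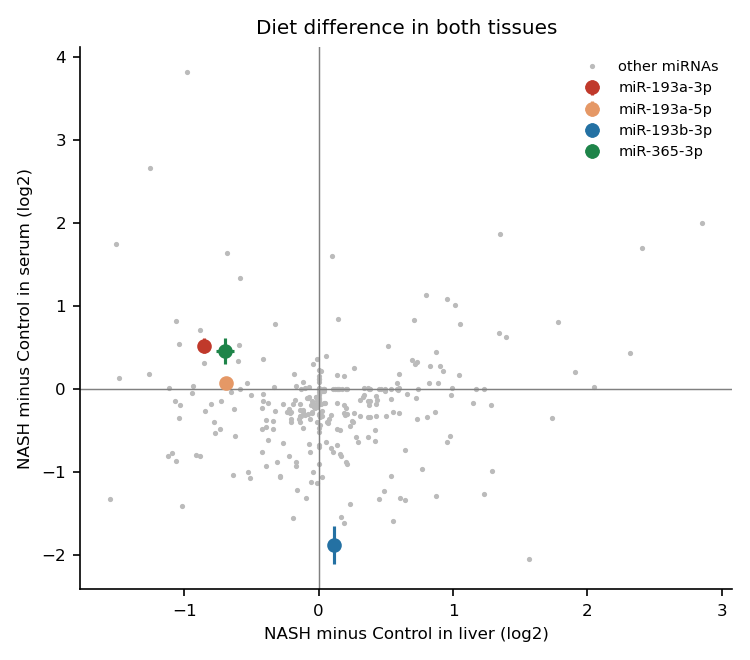
NASH minus Control log2 difference in serum against that in liver for the 293 miRNAs tested in both tissues, with the 4 members coloured (bars, SE). miR-193a-3p (-0.85, 0.52) and miR-365-3p (-0.70, 0.45) lie at the upper left and miR-193b-3p (0.11, -1.88) at the bottom.

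The contrast of liver with serum was not used to choose the members and was tested within each diet, with all 24 arrays scaled together and a floor of 1.61. In NASH arrays miR-193a-3p averaged 49.0 ± 10.5 in liver and 3.48 ± 0.484 in serum (SD, n = 6 each), a log2 difference of 3.80 (SE 0.09, limma adjusted p = 6.64e-13). In Control arrays it averaged 68.9 ± 10.2 in liver and 0.816 ± 0.486 in serum, so with this scaling and background it was at least 21.3-fold higher in liver (limma adjusted p = 2.4e-14). This bound does not hold across settings. The fitted log2 difference ran from 2.27 to 6.56 in Control arrays and from 2.12 to 4.90 in NASH arrays. Thus miR-193a-3p was higher in liver with either diet, and no liver array overlapped a serum array.

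miR-365-3p was also higher in liver. In NASH arrays it averaged 23.0 ± 3.34 in liver and 10.5 ± 2.65 in serum, a log2 difference of 1.15 (SE 0.12, limma adjusted p = 1.21e-06). In Control arrays it averaged 29.2 ± 2.10 in liver and 7.75 ± 1.72 in serum, a log2 difference of 1.94 (SE 0.12, limma adjusted p = 4.66e-09).

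miR-193b-3p was higher in serum. In NASH arrays it averaged 1.09 ± 0.256 in liver and 5.83 ± 1.72 in serum, a log2 difference of -1.79 (SE 0.16, limma adjusted p = 4.02e-07). In Control arrays it averaged 0.617 ± 0.0951 in liver and 21.1 ± 3.67 in serum, a log2 difference of -3.69 (SE 0.16, limma adjusted p = 1.65e-10). All 12 liver arrays were at the joint floor, which by itself understates both differences in size. Other settings gave smaller as well as larger sizes. They ran from -2.67 to -0.73 in NASH arrays and from -5.095 to -1.98 in Control arrays. For miR-193a-3p and miR-193b-3p the direction and the call were kept in 38 of 38 other settings with each diet, and for miR-365-3p in 39 of 39. miR-193a-5p, at the joint floor on 6 NASH livers and 4 Control livers, differed by -0.45 in NASH arrays (SE 0.07, limma adjusted p = 3.76e-05), a call lost with the slide as a block (-0.35, limma adjusted p = 0.161). It did not pass in Control arrays (0.09, SE 0.07, limma adjusted p = 0.243).

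**Figure D4:**
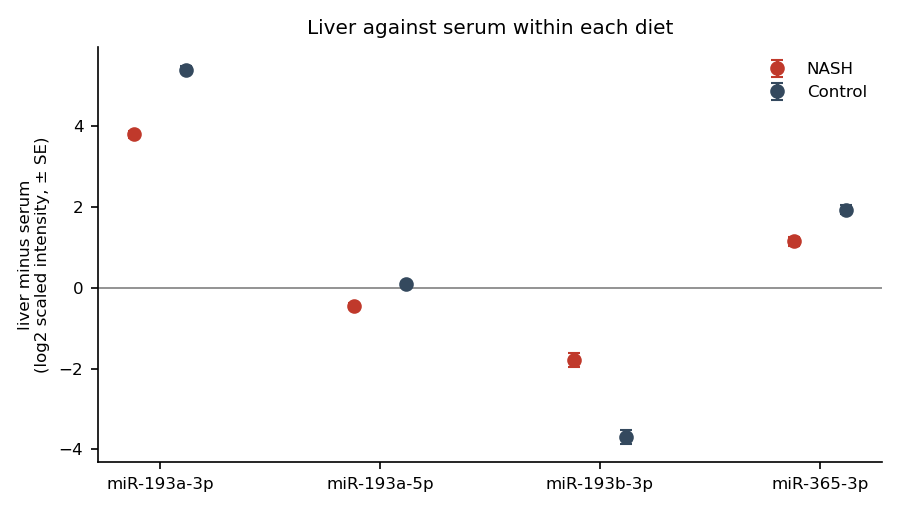
Liver minus serum log2 difference in jointly scaled intensity (± SE) for each member, NASH left of Control. miR-193a-3p and miR-365-3p lie above 0 and miR-193b-3p below 0 with both diets. NASH lies closer to 0 for each of them, which restates the diet differences on which the members were chosen and was not tested.

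Of the 4 members, 2 were called higher in liver and 2 lower in NASH arrays, where 21.9% of 526 miRNAs were called higher and 33.1% lower. In Control arrays 2 were called higher and 1 lower, where 16.5% were called higher and 50.2% lower. The split of calls moved with the scaling. In NASH arrays it was 115 higher and 174 lower, against 142 and 142 with quantile normalization, 155 and 121 scaled over all probes, 177 and 132 without scaling and 59 and 343 with normexp. In Control arrays it was 87 higher and 264 lower, against 121 and 216 with median centring, 118 and 207 with total gene signal, 148 and 137 with quantile normalization, 149 and 105 scaled over all probes, 133 and 122 without scaling and 40 and 470 with normexp. Labelled RNA was 100 ng for liver and 2.5 ng for serum, so amount and tissue cannot be told apart. The slides differed with tissue except for one, which held week 1 livers and week 6 sera. Within that slide the log2 differences were 4.12 in NASH and 5.26 in Control for miR-193a-3p, 0.96 in NASH and 1.68 in Control for miR-365-3p, and -1.45 in NASH and -3.49 in Control for miR-193b-3p.

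In chow-fed mice, levels at week 6 and week 1 were compared across the feeding time; slide and week cannot be told apart here. By limma 0 of 3 members with a value were called in liver (0.258% of 388 miRNAs called higher and 0.258% lower) and 0 of 2 in serum (0.939% of 426 higher and 0.939% lower). The week 6 minus week 1 log2 difference in Control livers was -0.07 (SE 0.06) for miR-193a-3p, -0.17 (SE 0.04) for miR-193a-5p and 0.12 (SE 0.12) for miR-365-3p. In Control sera it was -0.13 (SE 0.41) for miR-193b-3p and 0.24 (SE 0.28) for miR-365-3p. Adjusted p ranged from 0.274 to 1 by limma, and 1 of these 5 differences, that of miR-193a-5p in liver, had an unadjusted p below 0.05. Week 2 was set against week 1 in Control livers after the values had been seen, so its calls and p-values are a description and not a test. miR-193a-5p was called lower at week 2, by a log2 difference of -0.37 (SE 0.04, limma adjusted p = 0.0103), beside its NASH minus Control difference of -0.42 in that week, and both week 2 arrays were below both week 1 arrays. Over all liver miRNAs 0.515% were called lower and 1.03% higher in that contrast, and the miR-193a-5p call was kept in 15 of 25 other settings. miR-193a-3p (0.00, SE 0.06, limma adjusted p = 1) and miR-365-3p (0.35, SE 0.12, limma adjusted p = 0.366) were not called there. With an SE of 0.28, a serum change as large as the miR-365-3p diet difference was not detectable.

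The other strands of these hairpins, miR-193b-5p, miR-365-1-5p and miR-365-2-5p, were detected on 0 of 24 arrays, so miR-193a was the only one of these genes with both strands detected. The likeness of each member to other miRNAs above background on all 12 arrays of a tissue was measured as Pearson r of log2 scaled intensity; all points share the diet split, and r is a description. In liver, among 170 candidates, miR-193a-3p was nearest to miR-194-5p (0.98), miR-30c-5p (0.979) and miR-26a-5p (0.978), while its partners ranked 25th (miR-365-3p, 0.908) and 34th (miR-193a-5p, 0.867). miR-193a-5p was nearest to miR-22-3p (0.955), miR-212-3p (0.93) and miR-5100 (0.927). miR-365-3p was nearest to miR-3968 (0.96), miR-192-3p (0.956) and miR-107-3p (0.943). The same r was taken within each diet, over 6 arrays. For miR-193a-3p, r was 0.934 in NASH and 0.591 in Control livers with miR-194-5p, 0.993 and 0.631 with miR-30c-5p, and 0.978 and 0.956 with miR-26a-5p. With its partners it was 0.827 in NASH and 0.374 in Control livers for miR-365-3p, and 0.741 and -0.0604 for miR-193a-5p. For miR-193a-5p it was 0.791 in NASH and 0.627 in Control livers with miR-22-3p, 0.563 and 0.123 with miR-212-3p, and 0.807 and -0.322 with miR-5100. For miR-365-3p it was 0.91 in NASH and 0.706 in Control livers with miR-3968, 0.896 and 0.797 with miR-192-3p, and 0.828 and 0.839 with miR-107-3p, and its r with miR-193a-5p was 0.968 in NASH and -0.858 in Control livers.

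In serum, among 154 candidates, miR-193b-3p was nearest to miR-205-5p (0.965), miR-214-3p (0.941) and miR-128-3p (0.899). Within the 6 NASH sera alone these became 0.668, 0.749 and 0.598. Within the 6 Control sera alone they became 0.899, -0.0291 and 0.075, so the likeness to miR-214-3p and miR-128-3p was not seen in Control sera. miR-365-3p was nearest to miR-34a-5p (0.75), miR-122-5p (0.706) and miR-342-3p (0.679). Within each diet its r was 0.597 in NASH and 0.626 in Control sera with miR-34a-5p, 0.942 and 0.381 with miR-122-5p, and 0.381 and 0.496 with miR-342-3p. Its r with miR-193b-3p was -0.529 over 12 sera, and -0.0233 within NASH and 0.661 within Control sera.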

How the data were processed

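Per the file headers, the deposited data are scanner intensity for each spot; Agilent Feature Extraction 11.5 made them, per the submitters' processing notes, and the processed signal is background-subtracted without scaling between arrays. After removal of control spots and of those flagged as outliers, spots were averaged per probe. Each array was scaled to its 75th percentile over probes above background on every array of the fit (299 in liver, 253 in serum, 163 jointly). A probe counted as above background where at least 50% of its spots did. The floor was set at the 5th percentile of such scaled signals (median of the arrays) before log2. A miRNA was its brightest probe, tested if detected on at least 2 arrays (388 in liver, 426 in serum, 526 jointly). limma 3.58.1 (R 4.3.3) with eBayes was fitted to the tissue, diet and week groups, with 6 residual degrees of freedom per tissue and 12 jointly, and Benjamini-Hochberg adjusted p below 0.05 was a call. A difference of 0 between values at the floor on both sides was never a call. The code was tested on simulated data. Normexp used the median spot signal, as the files used here give no mean signal. Precision is limited by the number of arrays. Members, lists and tests were chosen with earlier results of these data known. Named miRNAs are the members, the other strands of their hairpins, the 3 most alike per member and tissue, and the marker lists. Alternatives concerned signal column, background, scaling, floor, filter, probe summary, variance model, blocks and each array left out.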

Additional observations from a re-analysis of the deposited data

Results flagged for a closer look

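Every NASH array lay on one side of its week's Control mean in liver and on the other side in serum for a pair of members, and this difference between tissues is given without a test because the members were chosen on it. miR-193a-3p had a NASH minus Control log2 difference of -0.85 in liver (6 of 6 NASH arrays lower) and 0.52 in serum (6 of 6 higher, with the Control sera at the floor). miR-365-3p had -0.70 in liver (6 of 6 lower) and 0.45 in serum (6 of 6 higher, with overlapping groups).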

How the results depend on the processing

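The alternatives below were planned, except for the Control week 2 contrast, and the cause of each change was not tested unless stated. The liver diet calls numbered 164, against 258 with the floor lowered 4 times, 109 with no filter, 100 scaled over all probes and 141 to 173 leaving out an array. The serum diet calls numbered 80, against 140 with the floor lowered 4 times, 35 with no filter, 39 scaled over all probes, 44 without scaling, 365 with normexp (its offset of 50 is divided by each array's percentile) and 48 to 118 leaving out an array. The liver against serum calls numbered 289 in NASH arrays, against 104 among miRNAs detected on all arrays, 449 with the floor lowered 4 times, 182 with a slide block and 271 to 312 leaving out an array. In Control arrays they numbered 351, against 118 among miRNAs detected on all arrays, 195 with a slide block, 213 on the slide with both tissues alone and 331 to 362 leaving out an array. Control week 6 minus week 1 gave 2 calls in liver, against 0 among miRNAs detected on all arrays (13 at an unadjusted p below 0.05 by limma), 0 with the mean of probes (19), 0 with no filter (21), 0 with normexp (6), 1 with eBayes trend, 1 with the floor doubled, 1 with a slide row block, 5 with quantile normalization, 5 with total gene signal and 1 to 6 leaving out an array. In serum it gave 8, against 2 with the floor doubled, 2 with no filter, 2 scaled over all probes, 3 with quantile normalization, 22 with total gene signal, 77 without scaling, 326 with normexp and 4 to 35 leaving out an array.

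Same-numbered NASH and Control arrays deviated with correlations of -0.599, 0.42 and 0.485 in liver and 0.547, 0.139 and 0.181 in serum at weeks 1, 2 and 6, and one week 6 serum array has no number in its label, so the numbers were not taken as pairs. With the replicate block the diet calls were 147 in liver and 23 in serum. Under it miR-193b-3p lost its call in liver, and in serum miR-193a-3p lost its call, miR-365-3p gained one and miR-193b-3p kept its own.

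Directions turned for dim or small differences, and also for the bright miR-193a-3p and miR-365-3p in liver at week 1. With normexp, miR-193a-3p in serum became -0.30, miR-193a-5p became -0.40 in serum at week 6, -0.38 for serum minus liver and -0.72 for liver minus serum in Control arrays, miR-193b-3p became -0.13 in liver and -0.18 there at week 6, and its Control serum week difference became 0.21. With quantile normalization miR-193b-3p in liver became -0.025. Without scaling miR-193a-3p and miR-365-3p in liver at week 1 became 0.089 and 0.095, from -0.42 and -0.41. For miR-193a-5p, liver minus serum in NASH arrays became 0.069 without scaling. The miR-365-3p Control serum week difference became -1.20 without scaling, or -0.31 scaled over all probes. Leaving out an array took the miR-365-3p Control week difference down to -0.044 in liver and -0.14 in serum, with highest values of 0.25 and 0.52. In Control livers at week 2, miR-193a-5p became 0.0014 with normexp and 0 with the floor doubled, and its call was lost in 10 of 25 settings. The median diet difference over all tested miRNAs, 0.00 in liver, became -0.14 with normexp and 0.19 without scaling. In serum it was -0.11, and it became -0.42 with normexp, -0.28 among miRNAs detected on all arrays, -0.24 with the floor lowered 4 times and 0.05 without scaling. It was 0 there with total gene signal, over all probes, median centring, quantile normalization, the floor doubled or no filter. Dim members near the floor limit what can be resolved.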
